A study of Mus musculus with 16 samples.

Results

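Tau, 8 other proteins that bind microtubules or their tubulin subunits, and the cell-surface protein Thy1 were followed through the hippocampal RNA of 16 mice. The genes were taken by symbol from the count table: Mapt, which encodes tau, the microtubule-associated protein genes Map1a, Map1b, Map2, Map4 and Map6, the stathmin genes Stmn1, Stmn2 and Stmn3, and Thy1. All 10 were found among the 54532 genes of the table, and all 10 passed the filter on low counts in every comparison. There were 4 mice in each of 4 groups: wild-type mice on plain water (WT), wild-type mice given nicotinamide riboside (WT + NR), transgenic mice on plain water (hTau.P301S) and transgenic mice given nicotinamide riboside (hTau.P301S + NR). Nicotinamide riboside (NR), a precursor of NAD+, was supplied at 6 mM in the drinking water. By the labels, treatment ran for 3 months, from 12 to 15 months of age, and was followed by behavioural testing. The study's text gives other ages, and a duration that matches the labels in its first results section but is shorter in a later one. No test here uses the ages or durations. All 8 hTau.P301S mice carried human tau with the P301S change, expressed from the Thy1 promoter, which acts mainly in neurons. The labels give neither the sex nor the strain of the mice, and whole hippocampus was taken, so that fewer cells of a type and less RNA per cell cannot be told apart in any value below.

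Microtubules are polymers of alpha- and beta-tubulin that carry transport along axons and dendrites. Tau is enriched in axons and MAP2 in dendrites, and together with MAP4, which is found in most tissues, they form a family whose members hold the polymer through a shared set of repeats. MAP1A and MAP1B are another family, with MAP1B prominent in growing axons, and MAP6 is known for making microtubules resistant to cold. Stathmins work the other way: they bind free tubulin and favour disassembly. In the tauopathies, tau leaves the microtubule and aggregates in the cytoplasm. Thy1 is a glycolipid-anchored surface protein, abundant in mature neurons and, in mice, in T cells, and its promoter is widely used to drive transgenes in neurons.

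The human transgene's own sequence and its counts were not analysed here, and Mapt values below are counts assigned to the mouse gene. Whether reads of human tau RNA were among those counts in the transgenic mice was not tested.

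Total counts per mouse ranged from 16490261 to 21915362, and no pair of mice had identical counts. The mouse labelled hTau.P301S replicate 1 stood apart from the other 15. Mitochondrial genes took 14.4% of its counts, against 4.48 to 7.07% in the others, and 19467 genes were detected in it, against 22199 to 24918. Its counts also leaned towards short genes. For each doubling of the deposited gene length, its log2 CPM (counts scaled to a common library size) fell by 0.531 relative to the median mouse, whereas the slope of the other 15 lay between -0.135 and 0.0891. This lean was visible in the genes described here. In that mouse, the CPM of Stmn3, the shortest gene of the set at 1136 bases, was 4.68 times the mean of the other 3 hTau.P301S mice. Map2, the longest at 16449 bases, stood at 27.9% of that mean. The 4 shortest genes (Stmn3, Stmn1, Thy1 and Stmn2) were higher there than in any other mouse, and 5 of the 6 longest (Mapt, Map6, Map1a, Map1b and Map2) were lower than in any other mouse. Across the 10 genes, length and the ratio to the group had a Spearman correlation of -0.84, a description of 1 library. Many fold changes below are therefore also given without it.

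**Figure D1:**
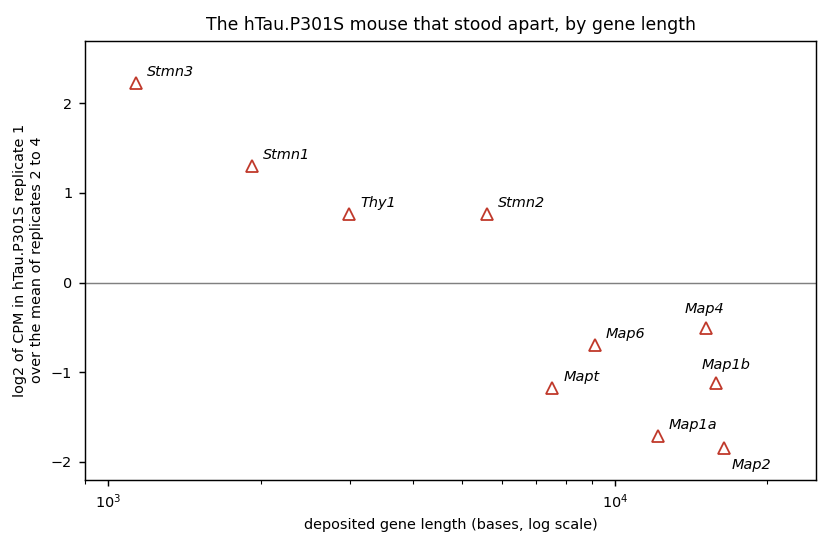
Each triangle is 1 of the 10 genes in hTau.P301S replicate 1. The x axis is the deposited gene length in bases (log scale) and the y axis the log2 ratio of CPM in this mouse to the mean of replicates 2 to 4. Values run from 2.23 for Stmn3 to -1.84 for Map2, above 0 for the 4 shortest genes and below 0 for the other 6.

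Per kilobase of deposited length, Stmn3 had the highest level of the set in WT hippocampus, at 376 CPM per kb, and its 4 WT mice did not overlap those of the next gene. Thy1 followed at 176 CPM per kb, Stmn1 at 141 CPM per kb and Map1a at 99.0 CPM per kb. Next came Map2 (57.3 CPM per kb), Mapt (56.5 CPM per kb), Map1b (51.7 CPM per kb), Stmn2 (47.0 CPM per kb) and Map4 (43.9 CPM per kb). From Thy1 to Map4 each gene's WT mice overlapped those of the next gene, so that neighbours in this order did not differ beyond their spread. Map6 was lowest, at 11.7 CPM per kb, and did not overlap Map4. Per length, tau RNA was thus at about the level of MAP2 RNA in WT hippocampus. In hTau.P301S + NR mice, Thy1 averaged 245 CPM per kb against 306 for Stmn3 and overlapped it, while it lay clear of Stmn1 at 138.

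**Figure D2:**
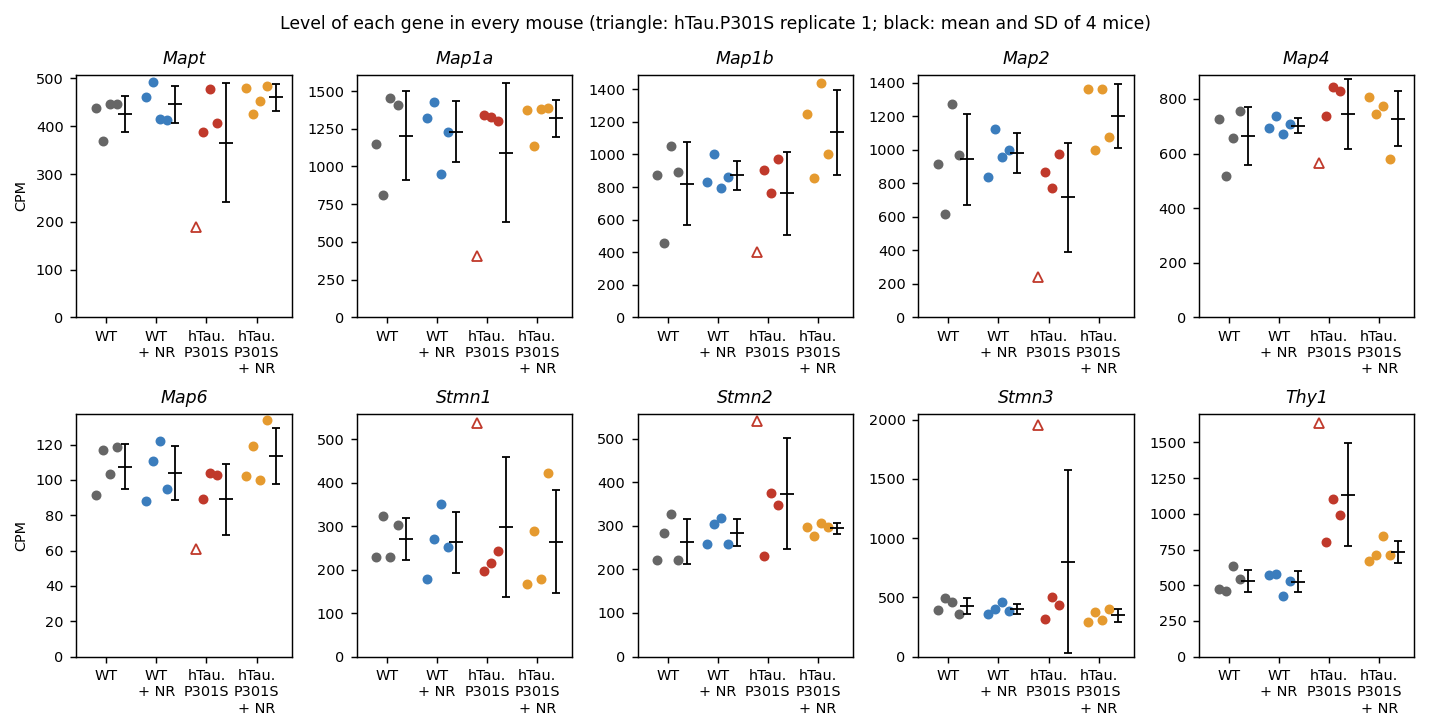
CPM (y axis, from 0) of each gene in each of the 16 mice, by group on the x axis. Coloured points are mice, the open triangle is hTau.P301S replicate 1, and the black mark with its bar is the mean and SD of 4 mice. Thy1 is the only panel in which every mouse of both hTau.P301S groups lies above every mouse of both WT groups, and in most panels the triangle lies far from the other 3 mice of its group.

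Thy1 (GRCm38 chr9:44043384-44048579, plus strand) had more RNA in every hTau.P301S mouse than in any WT mouse. In WT mice its level was 475, 462, 633 and 541 CPM, and in WT + NR mice 572, 579.6, 424 and 526 CPM. In hTau.P301S mice it was 1639.9, 804, 1102 and 993 CPM. In hTau.P301S + NR mice it was 667, 712, 845 and 708 CPM. The lowest of the 8 transgenic mice, at 667 CPM, was above the highest of the 8 WT mice, at 633 CPM. The means were 528 ± 78.3 CPM in WT and 1135 ± 359 CPM in hTau.P301S mice (SD, n = 4 each). Without hTau.P301S replicate 1, the hTau.P301S mean was 966 ± 151 CPM (SD, n = 3), 1.83 times that of WT.

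Between hTau.P301S and WT mice without NR, the log2 fold change of Thy1 was 1.11 ± 0.27 (SE), with an unadjusted edgeR p of 0.00300 and an adjusted p of 0.598 over 16375 genes. The groups did not overlap (two-sided exact permutation p = 0.0286, the smallest that 4 against 4 can give). A gene was called where its adjusted p was under 0.05 and its absolute log2 fold change above 0.5. For the interaction of NR with genotype described below, the adjusted p alone decided. In the comparison of hTau.P301S with WT, edgeR called 1 gene, which is 0.00611% of those tested. Of all genes tested, 7.14% had an unadjusted p under 0.05, 3.55% were higher without overlap and 2.69% lower. Of the 10 genes described here, only Thy1 had an unadjusted p under 0.05 and only Thy1 did not overlap. For a set of 10 genes, 1 gene is near these shares of all genes. Without replicate 1, the log2 fold change was 0.86 (edgeR adjusted p = 0.190). DESeq2, the tool of the study, gave 1.10 on the same 8 mice with an adjusted p of 0.0223, and edgeR with the 4 groups in one fit gave 1.10 with an adjusted p of 0.0434, so that the call on Thy1 depended on the tool and on the mice in the fit.

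With NR in both genotypes, the difference had the same direction and was smaller. Thy1 averaged 733 ± 77.2 CPM in hTau.P301S + NR and 525 ± 71.6 CPM in WT + NR mice (SD, n = 4 each), 1.40 times as much, and the log2 fold change was 0.48 ± 0.13 (SE; edgeR adjusted p = 0.757). These groups did not overlap either (exact permutation p = 0.0286). In this comparison edgeR called 0.0540% of 16671 genes, 6.09% had an unadjusted p under 0.05, and 1.62% were higher and 2.11% lower without overlap. Over all 16 mice, with NR as a term in the fit, Thy1 had a log2 fold change of 0.79 ± 0.16 (SE) for genotype, ranked 31 of 17555 genes by p and missed the threshold at an adjusted p of 0.0932. It was 1 of 27 genes (0.154%) that were higher in all 8 transgenic mice than in all 8 WT mice, with 0.0399% lower in all 8 (exact permutation p = 0.000155, the smallest that 8 against 8 can give). edgeR called 0.120% of genes for genotype, and 7.75% had an unadjusted p under 0.05. This fit uses the mice of the comparisons above and is not independent of them. Without hTau.P301S replicate 1, Thy1 was called for genotype, with a log2 fold change of 0.66 and an edgeR adjusted p of 0.0142.

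The transgenic mice given NR had a lower mean Thy1 level than those on plain water, a difference that did not pass the test. The log2 fold change with NR in that genotype was -0.64 ± 0.26 (SE; edgeR adjusted p = 0.367), and the groups overlapped, since hTau.P301S replicate 2 at 804 CPM lay below hTau.P301S + NR replicate 3 at 845 CPM (exact permutation p = 0.0571). Without hTau.P301S replicate 1 the log2 fold change was -0.39 (edgeR adjusted p = 0.199). Thy1 was the 1 gene of the 10 with an unadjusted p under 0.05 here, as were 12.9% of all 16386 genes tested, so that 1 in 10 is near the share of all genes. edgeR called 0.00610% of genes here, and 6.33% were higher and 5.54% lower without overlap. Between WT + NR and WT, Thy1 differed by -0.0015 ± 0.15 (SE) on the log2 scale. The test of the difference between these NR effects (the interaction) gave -0.62 ± 0.29 (SE; edgeR adjusted p = 0.558), where its unadjusted p was under 0.05, as for 7.92% of genes, and edgeR called 0%. Without replicate 1 the interaction was -0.38 (edgeR adjusted p = 0.695).

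**Figure D3:**
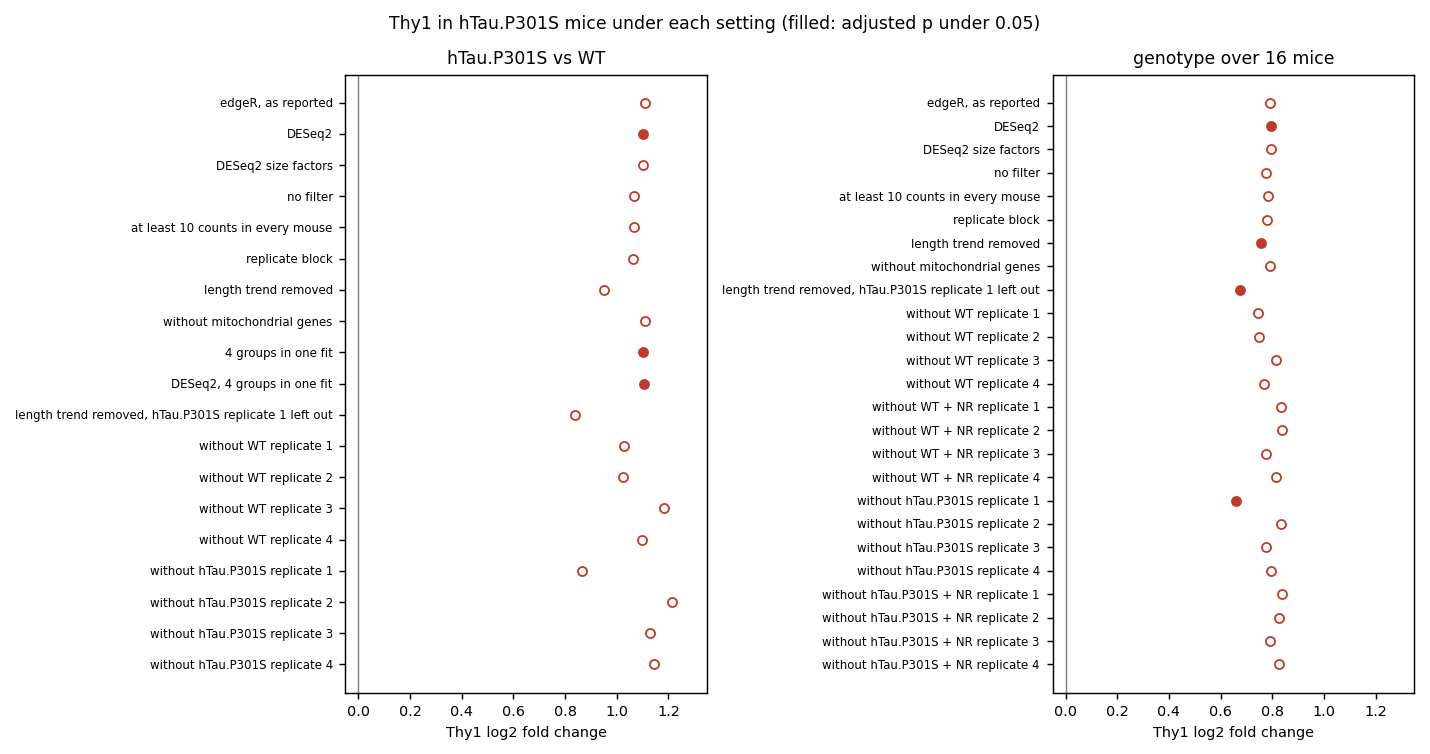
Log2 fold change of Thy1 (x axis) between hTau.P301S and WT mice (left) and between genotypes over 16 mice (right), 1 point for each fit named on the y axis. Filled points had an adjusted p under 0.05. Every estimate is positive, from 0.84 to 1.21 on the left and from 0.66 to 0.84 on the right, and 3 of 19 points on the left and 4 of 25 on the right are filled.

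Thy1 also marks mouse T cells, whose RNA was scarce in these samples. The summed level of 8 T cell marker genes, among them Cd3d, Cd3e and Cd3g, ranged from 2.38 to 5.90 CPM in hTau.P301S, from 2.64 to 6.56 in hTau.P301S + NR, from 2.16 to 14.1 in WT and from 1.31 to 4.94 in WT + NR mice. Cd3e, a defining subunit of the T cell receptor complex, reached at most 5 counts in a mouse. The 8 neuronal markers summed to 5045 to 7699 CPM in WT and 4019 to 8728 CPM in hTau.P301S mice. With all mice, 5 of 8 were higher and 3 lower (median log2 fold change 0.15), with none at an unadjusted p under 0.05. Without replicate 1, 6 were higher and 2 lower (median 0.25). For genotype over 16 mice, 6 were higher and 2 lower (median 0.05). All 8 were higher for genotype without replicate 1 (median 0.16), again with none at an unadjusted p under 0.05. The part of T cells, neurons or other cells that carry Thy1 in the Thy1 difference was not tested. Counts are summed over the gene, so that RNA from any Thy1 sequence carried by the transgene cannot be told apart from RNA of the gene itself.

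Mapt (chr11:104231390-104332090, plus strand) had similar levels in 3 groups, and in hTau.P301S its value rested on 1 mouse. WT mice had 438, 369.6, 447 and 447 CPM, and WT + NR mice 461, 493, 416 and 413 CPM. The hTau.P301S mice had 188, 388, 477 and 407 CPM, and those given NR 480.3, 425, 453 and 484 CPM. The 188 CPM of hTau.P301S replicate 1 was the lowest of the 16, and the other 15 mice lay between 369.6 and 493 CPM. The log2 fold change between hTau.P301S and WT mice was -0.22 ± 0.28 (SE; edgeR adjusted p = 0.772), and without that mouse it was -0.01 (adjusted p = 0.985). With NR it was 0.33 ± 0.27 (SE) in the transgenic mice, or 0.13 without replicate 1, and neither passed (edgeR adjusted p = 0.518 and 0.597). Over 16 mice the genotype estimate for Mapt was -0.09 ± 0.15 (SE; edgeR adjusted p = 0.905). All groups overlapped.

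Map2 (chr1:66175273-66442583, plus strand), the dendritic relative of tau, was the other gene of the set with a pair of groups that did not overlap. It was 1364, 1001, 1362 and 1076 CPM in hTau.P301S + NR mice, against 243, 866, 774 and 976 CPM in hTau.P301S mice. The highest untreated transgenic mouse, at 976 CPM, was just below the lowest treated one, at 1001 CPM. WT mice (912, 613, 1274 and 969.8 CPM) and WT + NR mice (836, 1124, 959 and 997 CPM) spanned much of the same range. The log2 fold change with NR in hTau.P301S mice was 0.75 ± 0.39 (SE; edgeR adjusted p = 0.370, exact permutation p = 0.0286), with 6.33% of all genes higher without overlap in this comparison. Without replicate 1 it was 0.47 (edgeR adjusted p = 0.157), and with the length trend removed from every mouse it was 0.34 (adjusted p = 0.442), or 0.19 with replicate 1 also left out. Between hTau.P301S and WT mice Map2 differed by -0.40 ± 0.42 (SE), or by -0.12 without replicate 1. With NR in both genotypes it was higher in the transgenic mice by 0.29 ± 0.15 (SE) on the log2 scale and did not pass (edgeR adjusted p = 0.781, exact permutation p = 0.143).

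Map1b (chr13:99421446-99516540, minus strand) followed Map2. It stood at 1246, 855, 1439 and 1001 CPM in hTau.P301S + NR mice and at 404, 905, 766 and 969.7 CPM in hTau.P301S mice, with overlap. Values were 874, 457, 1054 and 890.1 CPM in WT and 830.1, 1000.02, 796 and 858 CPM in WT + NR mice. The log2 fold change with NR in transgenic mice was 0.58 ± 0.31 (SE; edgeR adjusted p = 0.372, exact permutation p = 0.114), or 0.38 without replicate 1 (adjusted p = 0.306). With the length trend removed it was 0.11, and 0.098 with replicate 1 also left out. Between hTau.P301S + NR and WT + NR mice it was 0.38 ± 0.17 (SE; edgeR adjusted p = 0.781, exact permutation p = 0.114). Over the 16 mice the levels of Map1b and Map2 had a Spearman correlation of 0.88 and a Pearson correlation of 0.91 on log2 CPM, and without hTau.P301S replicate 1 these were 0.85 and 0.93. WT replicate 2, whose length slope of -0.135 was the most negative of the other 15, was also the lowest of those 15 mice for both genes. The 16 values share library and length effects, both genes being among the 3 longest of the set, and the part of these effects in the correlation was not tested.

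**Figure D4:**
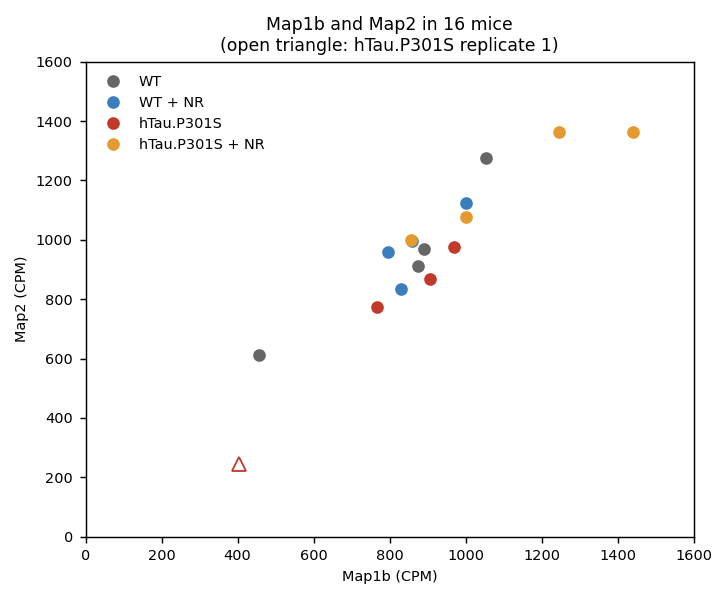
Map2 against Map1b, both in CPM, 1 point for each of the 16 mice, coloured by group, with hTau.P301S replicate 1 as an open triangle. The points rise together from 404 CPM of Map1b and 243 CPM of Map2 in that mouse to 1439 and 1362 CPM in hTau.P301S + NR replicate 3.

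Map1a (chr2:121289600-121310832, plus strand), Map4 (chr9:109931460-110083955, plus strand) and Map6 (chr7:99267447-99337137, plus strand) did not pass in any comparison, and their groups overlapped throughout. Map1a was 1152, 808, 1452 and 1405 CPM in WT mice. In hTau.P301S mice it was 404, 1338, 1325 and 1304 CPM, so that 3 mice lay between 1304 and 1338 CPM and the other at 30.5% of their mean. Its log2 fold change between these groups was -0.14 ± 0.39 (SE) with replicate 1 and 0.13 without it. Map4 averaged 665 ± 106 CPM in WT and 745 ± 127 CPM in hTau.P301S mice, and with NR 703 ± 26.1 and 727 ± 100.4 CPM (SD, n = 4 each). Its log2 fold changes were 0.16 ± 0.22 (SE) between hTau.P301S and WT and -0.04 ± 0.21 (SE) with NR in hTau.P301S. With the length trend removed they were 0.50 (edgeR adjusted p = 0.582) and -0.56 (adjusted p = 0.392), each with an unadjusted p under 0.05. With replicate 1 also left out they were 0.34 (edgeR adjusted p = 0.354) and -0.40 (adjusted p = 0.198), again with unadjusted p under 0.05. Map6 averaged 108 ± 12.7 CPM in WT and 89.2 ± 20.05 CPM in hTau.P301S mice, and with NR 104 ± 15.3 and 114 ± 15.95 CPM (SD, n = 4 each), with log2 fold changes of -0.27 ± 0.21 and 0.35 ± 0.20 (SE) in the same order. Replicate 1 had the lowest Map6 level of the 16 mice, and without it these were -0.13 and 0.22. Ppip5k1 lies on the opposite strand across part of Map1a, with 27763 counts in all against 365422, and the strand setting of the counting is not given in the sources used here.

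The stathmins, which bind free tubulin, each had the highest level of the 4 hTau.P301S mice in replicate 1. Stmn3 (chr2:181306459-181314500, minus strand) was 390.3, 499, 463 and 357 CPM in WT and 1953, 315, 503 and 433 CPM in hTau.P301S mice. The 1953 CPM of replicate 1 compares with at most 503 CPM in any other mouse. Its log2 fold change between these groups was 0.92 ± 0.56 (SE; edgeR adjusted p = 0.598, exact permutation p = 0.629) and turned to -0.04 without that mouse. With NR in transgenic mice it was -1.22 ± 0.56 (SE; edgeR adjusted p = 0.367, exact permutation p = 0.114) and -0.25 without it. Stmn1 (chr4:134468320-134473843, plus strand) was 539, 198, 216 and 243 CPM in hTau.P301S and 229.5, 323, 229 and 302 CPM in WT mice, and its log2 fold change of 0.15 ± 0.35 (SE) turned to -0.32 without replicate 1 (edgeR adjusted p = 0.490). With NR in transgenic mice it was -0.19 ± 0.42 (SE), and 0.29 without replicate 1. Stmn2 (chr3:8509360-8561606, plus strand), a neuronal stathmin of axons, was 222, 283, 327 and 222 CPM in WT and 540.3, 232, 376 and 348 CPM in hTau.P301S mice. Its log2 fold change was 0.51 ± 0.29 (SE; edgeR adjusted p = 0.598, exact permutation p = 0.143), and 0.26 without replicate 1. It was -0.36 ± 0.26 (SE) with NR in transgenic mice, and -0.10 without replicate 1.

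**Figure D5:**
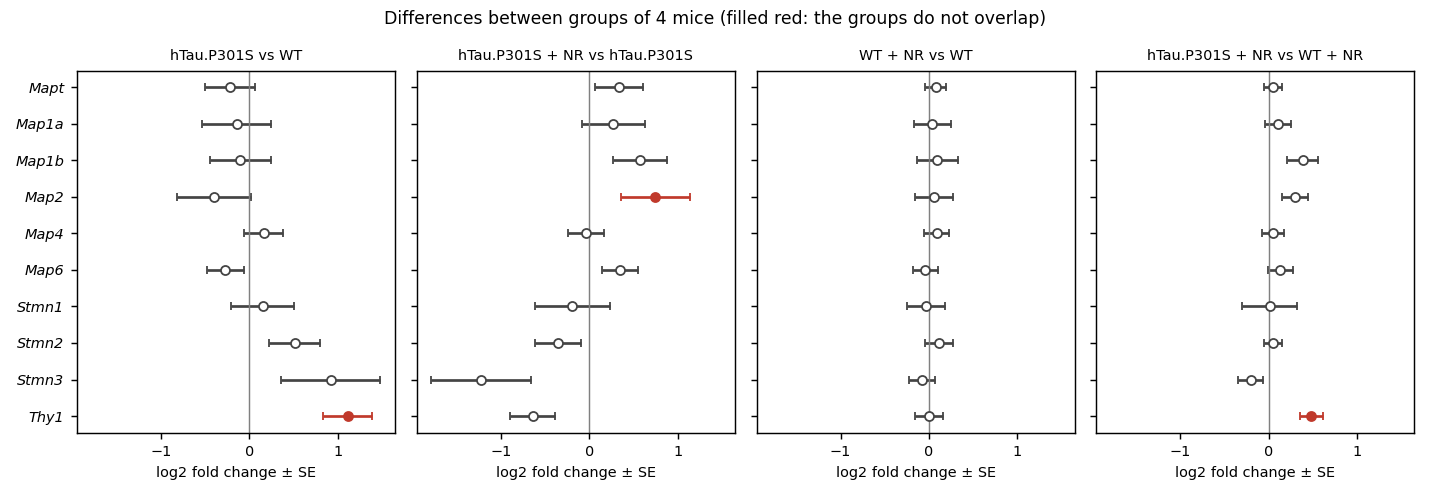
Log2 fold change with its SE (x axis) of the 10 genes (y axis) in the 4 comparisons between groups of 4 mice, all mice included. Filled red points are genes whose groups did not overlap: Thy1 at 1.11 and 0.48 between genotypes, and Map2 at 0.75 with NR in hTau.P301S mice. For NR given to WT animals all 10 points lie between -0.08 and 0.12.

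In WT mice, none of the 10 genes passed the test with NR. The log2 fold changes of the 9 genes other than Thy1 lay between -0.08 (Stmn3) and 0.12 (Stmn2), the smallest unadjusted p was 0.483, and no pair of groups was free of overlap. edgeR called 0% of 16714 genes in this comparison, 0.790% had an unadjusted p under 0.05, and 0.365% were higher and 0.389% lower without overlap. The SEs of 0.12 to 0.24 for these genes set what the comparison could show. For the interaction of NR with genotype, the estimates of the 9 genes ran from -1.11 (Stmn3) to 0.69 (Map2), with a smallest unadjusted p of 0.0817 (edgeR adjusted p = 0.558). Without replicate 1, Stmn3 was -0.16 and Map2 0.41 in this term. Over the 10 genes, the median log2 fold change was 0.02 between hTau.P301S and WT (0.02 over all genes), 0.12 with NR in hTau.P301S (-0.03), 0.05 with NR in WT (0.00) and 0.08 between genotypes on NR (-0.02). Between hTau.P301S and WT, 5 were higher and 5 lower. Between genotypes on NR, 9 were higher and 1 lower, with only Thy1 at an unadjusted p under 0.05, against 6.09% of all genes. For genotype over 16 mice, 6 were higher and 4 lower, or 8 and 2 without replicate 1.

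Other genes of the microtubule system were counted in 7 lists. Of 16 tubulin genes, which encode the polymer itself, 14 had a higher and 2 a lower estimate in hTau.P301S against WT mice (median log2 fold change 0.39), and 2 were higher and 14 lower with NR in hTau.P301S mice (median -0.53), comparisons that share the hTau.P301S mice. Without hTau.P301S replicate 1, 10 were higher and 6 lower in the first (median 0.06), and 3 were higher and 13 lower in the second (median -0.20). With all mice, 1 of 16 had an unadjusted p under 0.05 in the first and 2 in the second, against 7.14% and 12.9% of all genes. Between genotypes on NR, which leaves out those mice, 3 were higher and 13 lower (median -0.15). The 7 tubulin folding cofactors had medians of 0.61, -1.06 and -0.22 in the same comparisons. Of them, none, 1 and 2 had an unadjusted p under 0.05, against 7.14%, 12.9% and 6.09% of all genes. Without replicate 1 the first 2 medians were -0.07 and -0.06, so that the size of these 2 rested on that mouse. In the third comparison, which does not contain it, all 7 cofactors were lower. There 2 of the 7 did not overlap, with 2.11% of all genes lower without overlap. For 21 plus-end and minus-end proteins, which sit at the tips of microtubules, the medians were -0.09, 0.25 and 0.14, and the first 2 became 0.09 and 0.12 without replicate 1. The 28 of 29 kinesin and dynein motors that were tested had medians of -0.10, 0.16 and 0.07 (0.02 and 0.01 without replicate 1). For 24 of 25 other microtubule-associated proteins they were 0.01, 0.18 and 0.11 (0.13 and 0.02 without it), and for 10 neurofilament and CRMP genes -0.01, -0.02 and 0.01 (0.00 and -0.04). Of 25 tubulin-modifying and severing enzymes, 24 were tested between hTau.P301S and WT, where 1 was higher and 2 lower at an unadjusted p under 0.05 (median -0.04). With NR in hTau.P301S, 5 of 24 were higher and 1 lower at that level (median 0.15), against 12.9% of all genes. Without replicate 1 this became 4 higher and 1 lower of 25 tested (median 0.06), against 18.0% of all genes. None of the 133 listed genes was called by edgeR in the comparisons between groups of 4 mice. In those comparisons at most 5 genes of a list had an unadjusted p under 0.05 in 1 direction.

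1 gene of these lists was called, Tuba1c, an alpha-tubulin isotype, for genotype over 16 mice. It was 16.8, 17.6, 10.7 and 10.4 CPM in WT and 11.2, 12.7, 21.9 and 22.5 CPM in WT + NR mice. It was 42.3, 37.0, 47.3 and 45.5 CPM in hTau.P301S and 38.1, 34.9, 36.0 and 39.9 CPM in hTau.P301S + NR mice. Every transgenic mouse was above every WT mouse, as for Thy1, and hTau.P301S replicate 1 lay within its group. The log2 fold change was 1.38 ± 0.18 (SE; edgeR adjusted p = 0.00111). Between hTau.P301S and WT alone it was 1.64 ± 0.23 (SE; edgeR adjusted p = 0.189). Alpha-tubulin genes are close copies of each other, and how the counting shared reads between them is uncertain.

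Among 17554 other genes, those whose order over the 16 mice was most like that of Thy1 were Gtdc1 (Spearman 0.93), Rab35 (0.91), Tmem151a (0.89), Dym (0.89) and the gene model Gm20075 (0.89). Without hTau.P301S replicate 1 these were between 0.87 and 0.92. Those most like Mapt were Tln2 (0.83), Shank3 (0.81), Dpp9 (0.80), Gm10791 (0.79) and Ltbp1 (0.78), and between 0.73 and 0.81 without that mouse. Tln2 encodes a talin and Shank3 a scaffold of the postsynaptic density. Beside Map1b and Map2, Map1a and Map1b had a Spearman correlation of 0.79 (0.74 without replicate 1), Mapt and Map1a 0.71 (0.65), and Map6 and Stmn1 0.48 (0.80). These are descriptions over mice that share depth and length effects.

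Markers of other cell types also differed between the samples. The 6 oligodendrocyte markers summed to 2625 to 7635 CPM in WT and 7260.4 to 9360.5 CPM in hTau.P301S mice. All 6 were higher in the latter, 1 of them at an unadjusted p under 0.05, against 7.14% of all genes. The 6 striatal neuron markers, from another forebrain region, reached 1464 CPM in WT against at most 130.5 CPM in hTau.P301S mice. Their median sums were 112 and 104 CPM, and the 1464 CPM came from 1 WT mouse. Between these groups 4 of 6 were lower with an unadjusted p under 0.05, against 7.14% of all genes. The part of that WT mouse in this count was not tested. With NR in hTau.P301S mice all 6 striatal markers had higher estimates (median log2 fold change 1.70, with or without replicate 1). Of these, 5 had an unadjusted p under 0.05, against 12.9% of all genes, and their sum reached 509 CPM around a median of 135. In that comparison 6 of 7 markers of immature neurons and progenitors were also higher (median 0.62, and 0.63 without replicate 1). Only 1 of the 7 had an unadjusted p under 0.05, near the 12.9% of all genes. Choroid plexus markers ran from 17.9 to 9599.6 CPM over the 16 mice. All 4 endothelial and all 5 fibroblast markers had lower estimates for hTau.P301S than for WT mice. With all mice, 5 of 6 microglia markers were higher and 4 of 6 astrocyte markers lower. Of 6 tested markers of immature neurons and progenitors, 5 were lower. Without replicate 1, 5 of 6 astrocyte markers were instead higher (median 0.12, against -0.15 with all mice). Fibroblast markers were then 2 higher and 3 lower, and 5 of 6 microglia markers were still higher (median 0.11, against 0.52). The endothelial and immature neuron counts did not change. No marker was called with all mice, and without replicate 1 Gad2, of inhibitory neurons, was called as higher with NR in hTau.P301S (1.05 ± 0.16, SE; edgeR adjusted p = 0.0496). In that fit the 8 neuronal markers, Gad2 among them, had 2 positive and 6 negative estimates (median log2 fold change -0.29). Of these, 2 positive and 3 negative estimates had an unadjusted edgeR p below 0.05, against 18.0% of all genes. With all mice the split was also 2 positive and 6 negative (median -0.13). The 7 hippocampal neuron markers were present in every group (515 to 1029 CPM). Their part in the results was not tested.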

How the data were processed

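Poly(A) RNA of hippocampus from 16 mice was sequenced. Per the study's methods and the submitters' processing notes, the authors trimmed reads with Trim Galore after FastQC, aligned them to mm10 (GRCm38) with STAR and counted them per gene with RSEM. The deposited values are unnormalized whole-number counts per gene, beside a gene length whose definition is not given in the sources used here; it served as another value, for levels per kilobase and the length check. Replicate numbers name different animals, and whether the libraries came from separate preparations is not given.

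The 10 genes and the gene lists were chosen with earlier results of these data known. All 10 genes are named, and of the other lists those called. Some list genes that were not called are named too. These are T cell markers, and 5 microtubule genes chosen after their values were seen. For Thy1 and Mapt, the 5 genes with the highest Spearman correlation are named. Each comparison was fitted over all genes with edgeR 4.0.16 in R 4.3.3 (filterByExpr, TMM, quasi-likelihood test, Benjamini-Hochberg adjustment) on its 8 mice, or on 16 mice for genotype and interaction. Standard errors come from the fold change and the F statistic. CPM use TMM factors over 16 mice, and log2 CPM a prior count of 2. Exact permutation tests were two-sided on log2 CPM. Alternatives were DESeq2 1.42.0, its size factors, other filters (none, or at least 10 counts in every mouse), 4 groups in one fit, a replicate block, removal of mitochondrial genes or of a length trend, and leaving out each mouse. List counts and interaction estimates without hTau.P301S replicate 1 were added after the data were seen. Scripts were tested on simulated data. Positions come from GENCODE M21 and correlations from scipy 1.17.1.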

Additional observations from a re-analysis of the deposited data

Results flagged for a closer look

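In 5 of the 40 groups of 4 mice (10 genes in 4 groups), 1 mouse lay far from the other 3 by Dixon's criterion, which chance meets in about 1 group in 20. Of these, 3 were in hTau.P301S replicate 1: Map1a at 403.7 CPM, Stmn1 at 538.6 CPM and Stmn3 at 1953 CPM. The others were Mapt at 369.6 CPM in WT replicate 2 and Map1a at 1137.8 CPM in hTau.P301S + NR replicate 2, each the lowest of its group.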

How the results depend on the processing

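Thy1 kept the reported direction in every alternative run for the comparisons other than WT + NR against WT, where it was near 0. Between hTau.P301S and WT mice its log2 fold change became a call with DESeq2 (1.10), with 4 groups in one edgeR fit (1.10) and with DESeq2 on 4 groups (1.10), which raised the genes of the set called from 0 to 1. For genotype over 16 mice it became a call with DESeq2 (0.79), with the length trend removed (0.75) and with that and hTau.P301S replicate 1 left out (0.67), again 1 gene of the set against 0. Leaving out 1 mouse gave 0.66 (without hTau.P301S replicate 1, called) to 0.84, with 0 to 1 gene of the set called. In WT + NR against WT it was -0.0015 and gave 0.00046 with the replicate block and -0.067 to 0.092 with 1 mouse left out.

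Replicate numbers name different animals, and deviations of same-numbered mice correlated by under 0.1 in 11 of 16 pairs, with a range from -0.54 to 0.29. These correlations cannot show whether same-numbered mice shared a preparation, which is not given. With the replicate block, genes called were 3 between hTau.P301S and WT, 0 with NR in hTau.P301S and 4 between genotypes on NR, against 1, 1 and 9.

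Removing the length trend, without and with replicate 1 left out, turned Map1a (0.043 and 0.19), Map1b (0.20 and 0.21) and Stmn1 (-0.19 and -0.27) between hTau.P301S and WT, and Map1a (-0.036 and -0.19) and Stmn1 (0.24 and 0.32) with NR in hTau.P301S. Leaving out 1 mouse gave ranges that crossed 0 between hTau.P301S and WT for Map1a (-0.31 to 0.13), Map1b (-0.32 to 0.10), Stmn1 (-0.32 to 0.28) and Stmn3 (-0.043 to 1.15), and with NR in hTau.P301S for Map4 (-0.14 to 0.058) and Stmn1 (-0.49 to 0.29). The sign turned without hTau.P301S replicate 1 in 5 of these 6, and also without WT replicate 3 for Map1b, without hTau.P301S + NR replicate 1 for Stmn1 with NR, and without hTau.P301S replicate 3 or 4 or hTau.P301S + NR replicate 4 for Map4. The cause was not tested.

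Over all genes, calls between hTau.P301S and WT numbered 1 and became 115 with DESeq2, 5 with no filter, 9 with the length trend removed, 36 with 4 groups in one fit, 494 with DESeq2 on 4 groups and 22 with the length trend removed and replicate 1 left out; leaving out 1 mouse gave 1 to 14. With NR in hTau.P301S the 1 call became 283, 287 on 4 groups with DESeq2, 2 with 4 groups in one edgeR fit, 0 with at least 10 counts in every mouse and 23 with the length trend removed and replicate 1 left out, or 0 to 33 with 1 mouse left out. With NR in WT, DESeq2 on 4 groups gave 2 against 0. Between genotypes on NR the 9 calls became 58 with DESeq2, 15 with no filter and 21 with DESeq2 on 4 groups, or 8 to 31 with 1 mouse left out. For genotype the 21 calls became 105 with DESeq2, 11 with at least 10 counts in every mouse, 41 with the length trend removed and 70 with replicate 1 also left out, or 16 to 57 with 1 mouse left out. For the interaction, 0 became 18 with DESeq2, or 0 to 1 with 1 mouse left out. The largest of these ranges came without hTau.P301S replicate 1 (14, 33 and 57) and without WT + NR replicate 3 (31).

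Genes of the set higher at an unadjusted p under 0.05 numbered 1 between hTau.P301S and WT, 2 with the length trend removed, with or without replicate 1 (Map4 being the addition), 3 with 4 groups in one fit by either tool, and 1 to 2 with 1 mouse left out. With NR in hTau.P301S, 0 were higher, 1 with 4 groups in one edgeR fit, 2 with DESeq2 on 4 groups and 0 to 1 with 1 mouse left out, and 1 was lower (Thy1), 2 in each of DESeq2, the length trend removed, that without replicate 1 and 4 groups in one fit by either tool, 0 with the block and 0 to 3 with 1 mouse left out. Between genotypes on NR, 1 was higher, 3 with DESeq2, 2 with no filter and 1 to 3 with 1 mouse left out. For genotype, 1 was higher, 2 with the length trend removed, with or without replicate 1, and 1 to 2 with 1 mouse left out. For the interaction, 1 was lower and 0 with at least 10 counts in every mouse, no filter, the block or DESeq2 size factors, and 0 to 3 with 1 mouse left out. The smallest count of any of the 10 genes in a mouse was 711 (Map6).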

Other observations

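The following 5 genes of the wider microtubule lists were chosen after their values were seen, from those with the smallest p of their list, and none of them passed the test. Of all genes tested between hTau.P301S and WT, 3.55% were higher and 2.69% lower without overlap. With NR in hTau.P301S, 6.33% were higher and 5.54% lower without overlap. Dcx, which encodes doublecortin of migrating and immature neurons, was 6.75 CPM in hTau.P301S replicate 1 and 8.72 to 11.2 CPM in the other 3 hTau.P301S mice, below all WT mice (11.7 to 24.05 CPM) and all hTau.P301S + NR mice (15.9 to 25.6 CPM). Its log2 fold change was -0.83 ± 0.30 (SE; edgeR adjusted p = 0.598) between hTau.P301S and WT and 1.03 ± 0.24 (SE; adjusted p = 0.323) with NR in transgenic mice, comparisons that share the hTau.P301S mice. Without replicate 1 these were -0.71 and 0.92. Agbl5, a carboxypeptidase that removes glutamate side chains from tubulin, was 5.13 to 7.52 CPM in hTau.P301S and 11.2 to 14.6 CPM in WT mice (log2 fold change -1.01 ± 0.22, SE; edgeR adjusted p = 0.504), or -0.93 without replicate 1. Tubb2a, a neuronal beta-tubulin, was 668 CPM in hTau.P301S replicate 1, 343 to 558 CPM in the other 3 and 259.8 to 327 CPM in hTau.P301S + NR mice (-0.76 ± 0.24, SE; edgeR adjusted p = 0.367; -0.58 without replicate 1). Macf1, a very long cytoskeletal linker, was 127 CPM in replicate 1, 224 to 299 CPM in the other 3 and 338 to 504 CPM in hTau.P301S + NR mice (1.01 ± 0.27, SE; edgeR adjusted p = 0.367; 0.83 without replicate 1). In the tubulin cofactor Tbcb, replicate 1 stood at 284 CPM against 51.2 to 62.7 CPM in the other 3 hTau.P301S mice and 47.1 to 76.9 CPM in WT mice, and its log2 fold change between these groups went from 0.94 ± 0.56 (SE) to -0.06 without that mouse.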
